A study of Homo sapiens with 9 samples.

Results

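NB4 cells kept for 24 h with MC_2580, which the labels call an LSD1 inhibitor, were set against NB4 cells kept for 24 h with DMSO, both without retinoic acid (RA). The members are the rows of the authors' treatment table that set the MC_2580 library against the DMSO library and did not fail the authors' test, 35134 of 35856 loci. NB4 is an established human line from acute promyelocytic leukaemia, with a PML-RARA fusion gene. There was 1 library a side, so no difference between MC_2580 and DMSO has a replicate check, and differences are given by size with no p-value. The labels state no dose for MC_2580.

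4 further groups bear on the comparison. The combination (MC_2580 with RA 0.01 uM), RA 0.01 uM and RA 1 uM have 1 library each, all kept for 24 h, in the same table. LSD1 knockout (KO) and wild-type (WT) NB4 cells, both untreated, have 2 libraries each in a separate table. The labels do not say whether the like libraries are separate cultures or how many KO clones were used, and the knockout table gives both KO libraries the same line name, so they may be 1 clone. The p-values from KO and WT thus measure only the spread between these libraries, and loss of LSD1 cannot be told apart from anything else that differs between the lines.

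LSD1, encoded by KDM1A, removes methyl groups from histone H3 and works in a corepressor complex with CoREST proteins and histone deacetylases. In blood cells it is brought to DNA largely by the zinc finger repressors GFI1 and GFI1B, and it holds myeloid maturation genes in check. Inhibitors of LSD1 are known to release such genes in acute myeloid leukaemia cells, and RA drives promyelocytic leukaemia cells towards granulocytes.

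Markers of promyelocytes were present, with 1 exception. In FPKM (fragments per kilobase of transcript, scaled to the mapped total), MPO, the myeloperoxidase of primary granules, stood at 6518 FPKM with MC_2580 and 5301 FPKM in DMSO, and the granule serine protease gene PRTN3 at 219 FPKM with MC_2580 and 178 FPKM in DMSO. ELANE, the elastase gene of the same granules, stayed below 1 FPKM in both. KDM1A (AOF2 in the tables, chr1:23218533-23282771, build hg18) stood at 66.9 FPKM with MC_2580 and 69.9 FPKM in DMSO, a log2 difference of -0.06. Read totals were not used here. Judged by steps among the lowest values, 1 FPKM stood for 0.889 times as many reads in the MC_2580 library as in the DMSO library, and 13068 loci reached 1 FPKM with MC_2580 against 13033 in DMSO.

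Most genes stood at nearly the same level with and without the inhibitor, and the genes that differed were almost all higher with it. Of 9576 protein-coding genes with 1 locus and at least 1 FPKM in 1 of the libraries, 71 (0.741%) were at least 2-fold higher with MC_2580 and 1 (0.0104%), the defensin gene DEFA4, was 2-fold lower. The difference used throughout is log2((MC_2580 + 1)/(DMSO + 1)) in FPKM, which understates the ratio of genes at low levels. It stayed within 1.2-fold for 81.9% of the genes. At 1.5-fold 257 genes were higher and 30 lower, and at 4-fold 8 were higher and 0 lower. The authors' deposited table calls 57 of the genes higher (0.595%) and 5 lower (0.0522%), and 44 of the 71 are among its calls. The count of higher genes was 133 with a pseudocount of 0.1 FPKM, 23 with one of 5 FPKM and 43 among genes of at least 5 FPKM.

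Libraries of 1 group in the knockout table differed from each other more than MC_2580 differed from DMSO. The same rule marked 3.77% of genes between WT 1 and WT 2, and 3.38% between KO 1 and KO 2. The standard deviation of the log2 difference was 0.25 between MC_2580 and DMSO, 0.47 between the WT libraries and 0.46 between the KO libraries. The WT 1 to WT 2 and KO 1 to KO 2 differences were correlated across genes, as given at the end. They thus hold a part shared by both lines and do not measure random spread alone, here or where list medians between like libraries are given. Of the 71 genes, 19 also differed 2-fold between like libraries of either line, a larger share than the 3.77% (WT) or 3.38% (KO) of all genes. For 9 of these (C19orf38, C1orf54, CD48, CYTL1, FCGR2B, ICAM1, LY86, MMRN2 and SPP1) that spread was at least as large as the difference with MC_2580.

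**Figure D1:**
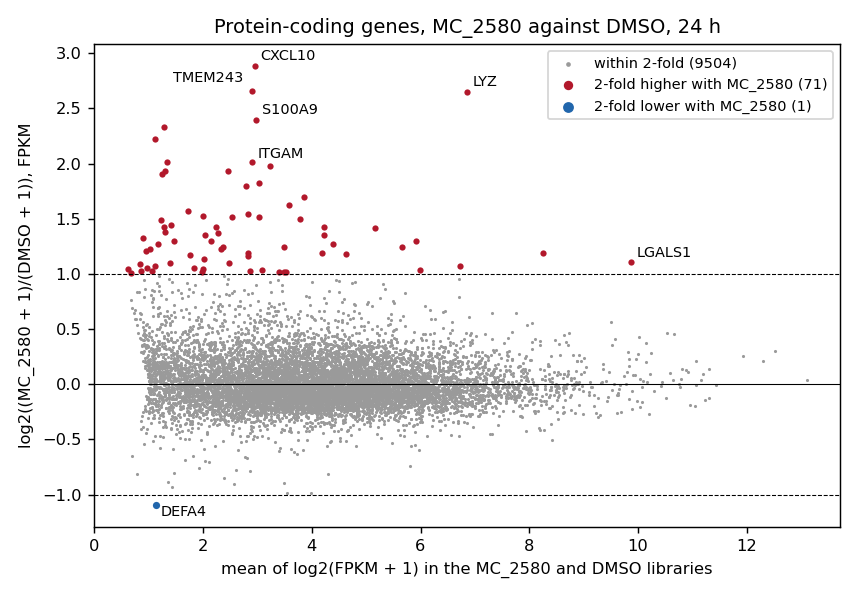
Difference between the MC_2580 and DMSO libraries against mean level for 9576 protein-coding genes, each point 1 gene, with dashed lines at 2-fold. The 71 genes past the upper line span low and high levels, while DEFA4 alone lies past the lower line.

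The higher genes were mostly at low levels in DMSO cells. The median of the 71 was 7.17 FPKM with MC_2580 and 1.99 FPKM in DMSO, where the median over all genes compared was 15.1 FPKM. In DMSO 23 of the 71 lay under 1 FPKM, 35 between 1 and 10 FPKM and 13 at 10 FPKM or more. Genes under 1 FPKM in DMSO could enter the comparison only by being higher with MC_2580. The nearest genes outside the 2-fold line were GARIN5A, IL1B, IGFLR1, PLD2 and SLC27A1, with log2 differences of 0.996, 0.98, 0.98, 0.95 and 0.95, and the nearest inside were LRRC25, ICAM2 and TLR1 at 1.01, 1.02 and 1.02.

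The largest difference was in CXCL10, a chemokine that attracts T cells and is a classic interferon target (chr4:77161297-77163674, hg18). It stood at 19.96 FPKM with MC_2580 and 1.84 FPKM in DMSO, a ratio of 10.9 and a log2 difference of 2.88. In the libraries with RA it stood at 74.8 FPKM in the combination, 0.897 FPKM in RA 0.01 uM and 7.32 FPKM in RA 1 uM. CXCL10 also varied between like libraries, with 6.14 and 1.55 FPKM in KO and 12.7 and 1.68 FPKM in WT, and the KO and WT groups overlapped. ART3, an ADP-ribosyltransferase gene next to CXCL10, stood at 9.71 FPKM with MC_2580, 5.39 times its DMSO level.

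Neighbours were frequent among the higher genes. Of the 71, 9 (12.7%) had another of the 71 within 100 kb, against 168 of the other 9505 genes compared (1.77%) with one of the 71 that near. The groups were CXCL10 with ART3, S100A8 with S100A9, FCGR2B with FCRLA, and ICAM1 with ICAM3 and ICAM4. S100A8 and S100A9, and likewise the ICAM genes, are related in sequence.

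Promoters of the higher genes were searched for the letters that factors of this system are known to bind, and 3 are shown because their genes are among the 20 largest differences at 5 FPKM or more and because their sites differ. The windows run from 250 bases before to 50 after the start, from RefSeq on GRCh38.p14, all 3 on the minus strand and written 5′ to 3′ along the gene, with motif letters in capitals. CXCL10 (chr4:76023448-76023747) holds an interferon-stimulated response element (GAAA, 2 free bases, GAAA) and an NF-kB site of each spelling, GGGNNTTCC and the same with 1 more free base. FUT7 (chr9:137032039-137032338) holds the longer NF-kB spelling and AATCAC, the core that GFI1 and GFI1B bind, each on the reverse strand, and HGF (chr7:81769998-81770297) holds AATCAC.
CXCL10: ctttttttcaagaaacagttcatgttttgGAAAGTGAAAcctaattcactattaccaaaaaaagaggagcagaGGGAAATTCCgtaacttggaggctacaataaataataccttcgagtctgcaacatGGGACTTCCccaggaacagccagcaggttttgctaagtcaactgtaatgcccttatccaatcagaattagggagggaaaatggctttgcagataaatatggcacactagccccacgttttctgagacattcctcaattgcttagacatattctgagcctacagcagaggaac
FUT7: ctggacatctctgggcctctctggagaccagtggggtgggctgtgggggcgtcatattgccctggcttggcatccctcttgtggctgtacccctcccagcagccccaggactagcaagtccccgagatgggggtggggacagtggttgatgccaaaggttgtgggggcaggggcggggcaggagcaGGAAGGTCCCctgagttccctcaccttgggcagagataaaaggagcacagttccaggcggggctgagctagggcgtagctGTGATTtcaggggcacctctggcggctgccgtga
HGF: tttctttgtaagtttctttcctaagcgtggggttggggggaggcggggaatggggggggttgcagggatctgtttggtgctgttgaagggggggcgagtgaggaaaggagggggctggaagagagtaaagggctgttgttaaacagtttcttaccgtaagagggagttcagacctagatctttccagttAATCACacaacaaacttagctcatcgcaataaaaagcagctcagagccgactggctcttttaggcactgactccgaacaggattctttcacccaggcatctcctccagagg

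Of the 71 genes 55 had a promoter in the table, and motifs were counted on both strands against the 15843 promoters of protein-coding genes. These include promoters of genes that were not compared here. AATCAC was present in 11 of the 55 (20% against 8.81% of all promoters): PI16, FUT7, S100A8, SEPTIN10, HGF, SLC1A3, IRF8, RNFT2, SIRPB2, CLEC12A and RNASE6. GAGGAAGT, a PU.1 site, was present in 4 (7.27% against 2.52%), namely FCRLA, SP140, JAML and MMRN2. TTGCNNAA, a C/EBP site, was in 7 (12.7% against 8.36%) and the interferon-stimulated response element in 3 (5.45% against 3.17%). The NF-kB spellings were in 7.27% against 7.44% (shorter) and in 9.09% against 6.96% (longer), and these 2 can overlap. A match says only that the letters are there.

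Genes of monocytes and macrophages stood above DMSO throughout the part of the list that could be measured. All 17 measured members of 28 listed stood above DMSO, where 46.3% of all genes did. This list and the others below were chosen with earlier results of these data known. Of the 17, 7 were 2-fold higher (0.741% of all genes), with a median log2 difference of 0.86 against -0.02 over all genes. Over the 13 members that reached 1 FPKM in DMSO itself, all 13 stood above DMSO, 5 were 2-fold higher and the median was 0.47. Over all 9406 such genes, 4259 stood above DMSO, 48 were 2-fold higher and the median was -0.02. The list's medians between like libraries were 0.37 (WT 1 over WT 2) and 0.32 (KO 1 over KO 2).

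LYZ, lysozyme (chr12:68028401-68034280), stood at 289.7 FPKM with MC_2580 and 45.3 FPKM in DMSO, a ratio of 6.39, and at 653 FPKM in the combination, 10.9 FPKM in RA 0.01 uM and 12.98 FPKM in RA 1 uM. Both libraries with MC_2580 thus lay above all 3 without it. LY96, the TLR4 co-receptor MD-2, was at 4.06 FPKM with MC_2580 and 0.252 FPKM in DMSO. CD86, a costimulatory ligand for T cells, was at 1.93 FPKM with MC_2580 and 0.1700 FPKM in DMSO. STAB1, a scavenger receptor, stood at 31.6 FPKM with MC_2580 and 12.5 FPKM in DMSO, and CD300LF, an inhibitory receptor, at 4.97 FPKM with MC_2580 and 1.72 FPKM in DMSO. The transcription factor genes KLF4 (5.58 FPKM with MC_2580, 1.58 FPKM in DMSO) and IRF8 (16.3 FPKM with MC_2580, 6.32 FPKM in DMSO) complete the 7. Several defining monocyte markers were barely detected: CD14, CD163, VCAN and CX3CR1 stayed below 1 FPKM in both libraries, and TLR2 stood at 3.78 FPKM with MC_2580 and 3.67 FPKM in DMSO.

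Granulocyte maturation genes were higher in the same direction with the late granule genes barely detected. Of 32 listed, 17 were measured, 15 of them above DMSO (46.3% of all genes) and 3 2-fold higher (0.741% of all genes), with a median log2 difference of 0.61 (0.12 between WT 1 and WT 2, 0.32 between KO 1 and KO 2). Over the 9406 genes that reached 1 FPKM in DMSO itself, 4259 stood above DMSO, 48 were 2-fold higher and the median was -0.02. Over the 16 members among them, 14 stood above DMSO, 2 were 2-fold higher and the median was 0.55. S100A9 (chr1:151596954-151600126) and S100A8, the subunits of calprotectin, were among the 3. S100A9 stood at 17.1 FPKM with MC_2580 and 2.44 FPKM in DMSO, but at 885 FPKM in the combination, 369 FPKM in RA 0.01 uM and 430.1 FPKM in RA 1 uM. S100A8 stood at 4.71 FPKM with MC_2580 and 0.921 FPKM in DMSO, and at 419.5 FPKM in the combination, 105 FPKM in RA 0.01 uM and 126 FPKM in RA 1 uM. Both subunits thus stood lower with MC_2580 alone than in any library with RA.

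ITGAM, the CD11b integrin chain that marks myeloid maturation, stood at 13.9 FPKM with MC_2580 and 2.68 FPKM in DMSO, and at 136 FPKM in the combination, 22.9 FPKM in RA 0.01 uM and 42.5 FPKM in RA 1 uM. Its locus in the table spans ITGAX as well, and whether these genes share reads was not tested. Whether strand was used in counting is not given in the sources used here. ITGAM varied between like libraries, at 28.99 and 9.397 FPKM in KO and 6.82 and 1.25 FPKM in WT, though both KO values lay above both WT values. MMP9 stayed below 2-fold on the log2(FPKM + 1) scale (53.6 FPKM with MC_2580, 28.9 FPKM in DMSO). So did the NADPH oxidase genes NCF1 (5.48 FPKM with MC_2580, 2.72 FPKM in DMSO) and CYBB (19.2 FPKM with MC_2580, 10.7 FPKM in DMSO). NCF1 has near-identical pseudogenes, so its reads may be shared. LTF, LCN2, CAMP, MMP8 and the other 11 unmeasured members lay below 1 FPKM in both libraries.

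Of the adhesion genes 6 of 17 measured were 2-fold higher, against 0.741% of all genes, and 13 stood above DMSO, against 46.3%, with a median log2 difference of 0.45 (0.32 between WT 1 and WT 2, 0.20 between KO 1 and KO 2). Besides ITGAM, these were FUT7 and 4 ICAM genes. FUT7, the fucosyltransferase that completes the sialyl Lewis x ligand of selectins, stood at 17.6 FPKM with MC_2580 and 3.71 FPKM in DMSO, and at 26.4 FPKM in the combination, 7.79 FPKM in RA 0.01 uM and 4.96 FPKM in RA 1 uM. Its locus overlaps ABCA2. The ICAM proteins are ligands of the beta-2 integrins. ICAM4 stood at 25.1 FPKM with MC_2580 and 7.05 FPKM in DMSO, ICAM3 at 152 FPKM with MC_2580 and 71.7 FPKM in DMSO, and ICAM2 at 15.3 FPKM with MC_2580 and 7.06 FPKM in DMSO. ICAM1 stood at 28.7 FPKM with MC_2580 and 10.6 FPKM in DMSO, but 21.4 and 4.21 FPKM in WT, a spread between like libraries at least as large as this difference. The integrin chains ITGB1 and ITGA5 lay slightly below DMSO, with log2 differences of -0.08 and -0.29. ITGAL and ITGA4 had a failed status.

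Chemokine and NF-kB genes were mostly above DMSO, 17 of 20 measured (46.3% of all genes), with a median log2 difference of 0.45. The list's medians between like libraries were larger (1.02 between WT 1 and WT 2, 0.74 between KO 1 and KO 2). Of the 18 at 1 FPKM or more in DMSO, 15 stood above it, with a median of 0.36. Of all 9406 such genes 4259 did, with a median of -0.02. CXCL10, IL1RN and ICAM1 were 2-fold higher, 3 of the 20, against 0.741% of all genes. IL1RN, the interleukin 1 receptor antagonist, stood at 14.5 FPKM with MC_2580 and 3.35 FPKM in DMSO. With RA it stood at 1.34 FPKM in the combination, 0.0607 FPKM in RA 0.01 uM and 0.0884 FPKM in RA 1 uM, so that the RA libraries all lay below DMSO. IL1B was at 2.203 FPKM with MC_2580 and 0.623 FPKM in DMSO, CCL3 at 8.99 FPKM with MC_2580 and 4.62 FPKM in DMSO, and NFKBIA, the NF-kB inhibitor, at 85.7 FPKM with MC_2580 and 52.2 FPKM in DMSO. CCL5 was the lowest of the list, at 266 FPKM with MC_2580 and 355 FPKM in DMSO.

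The measured interferon-stimulated genes stayed within 2-fold of DMSO on the log2(FPKM + 1) scale. Of 21 measured, 16 stood above DMSO (46.3% of all genes) and 0 were past 2-fold in either direction, with a median log2 difference of 0.25 (0.77 between WT 1 and WT 2, 0.24 between KO 1 and KO 2). OAS1, an antiviral synthetase, was highest at 2.69 FPKM with MC_2580 and 0.944 FPKM in DMSO. BST2 (tetherin) stood at 115 FPKM with MC_2580 and 77.9 FPKM in DMSO. USP18, which removes ISG15 from proteins, was lowest at 1.67 FPKM with MC_2580 and 2.77 FPKM in DMSO. MX1, OAS2, OASL, RSAD2 and IFI44L lay below 1 FPKM in both libraries. GBP1 fell just under that limit, at 0.998 FPKM with MC_2580 and 0.0227 FPKM in DMSO. CXCL11, listed with the chemokines, stood at 0.662 FPKM with MC_2580 and 0.106 FPKM in DMSO. Of the antigen presentation list 13 of 17 genes, the HLA genes among them, have several loci or no match and were not used here.

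Genes of the LSD1 complex and its recruiters were split around their DMSO level. Of 18 measured genes 8 stood above DMSO, near the 46.3% over all genes, with a median of -0.04. GFI1B (chr9:134810753-134856895) was the only member past 2-fold, at 6.71 FPKM with MC_2580 and 1.87 FPKM in DMSO, and at 95.4 FPKM in the combination, 22.9 FPKM in RA 0.01 uM and 8.83 FPKM in RA 1 uM. It also differed 2-fold between like libraries, with 4.52 and 1.39 FPKM in WT. GFI1 followed at 106 FPKM with MC_2580 and 67.1 FPKM in DMSO, and ZNF217, a zinc finger partner of the complex, at 21.9 FPKM with MC_2580 and 14.3 FPKM in DMSO. The CoREST gene RCOR1 and the deacetylase genes HDAC1 and HDAC2 had log2 differences of -0.09, 0.01 and -0.09.

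Among 21 measured transcription factor genes of myeloid cells 18 stood above DMSO (46.3% of all genes), with a median log2 difference of 0.33 (-0.04 between WT 1 and WT 2, -0.11 between KO 1 and KO 2). KLF4 and IRF8, factors of the monocyte path, were past 2-fold. CEBPE, the granulocyte factor, stood at 52.2 FPKM with MC_2580 and 37.1 FPKM in DMSO, SPI1 (PU.1) at 92.6 FPKM with MC_2580 and 70.5 FPKM in DMSO, and CEBPA at 43.1 FPKM with MC_2580 and 31.4 FPKM in DMSO. CEBPB was the lowest, with 4.56 FPKM with MC_2580 and 5.36 FPKM in DMSO. Immediate early genes had a median of 0.22 (0.46 between WT 1 and WT 2, 0.03 between KO 1 and KO 2), and within them EGR1 was lower, at 13.8 FPKM with MC_2580 and 24.9 FPKM in DMSO, while FOS was at 3.51 FPKM with MC_2580 and 2.01 FPKM in DMSO.

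Retinoid genes were near their DMSO level or undetected. Of 20 listed, 10 lay below 1 FPKM in both libraries, among them CYP26A1, RARB, TGM2 and ASB2. The 9 measured had a median log2 difference of 0.15 and none was past 2-fold. PRAM1, an adaptor of granulocytic cells, stood at 11.98 FPKM with MC_2580 and 7.18 FPKM in DMSO, and TNFSF10 (TRAIL) at 8.96 FPKM with MC_2580 and 5.401 FPKM in DMSO. RARA stood at 12.2 FPKM with MC_2580 and 11.5 FPKM in DMSO.

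Primary granule genes, made at the promyelocyte stage, were split much as all genes were: 7 of 15 measured stood above DMSO, against 46.3% of all genes, with a median of -0.02. Of the serine protease genes, AZU1 stood at 117 FPKM with MC_2580 and 93.6 FPKM in DMSO, and CTSG at 43.6 FPKM with MC_2580 and 58.6 FPKM in DMSO. The defensin gene DEFA4 stood at 0.492 FPKM with MC_2580 and 2.18 FPKM in DMSO, the single 2-fold lower gene. DEFA3 stood at 10.2 FPKM with MC_2580 and 21.2 FPKM in DMSO, but it shares reads with the near-identical DEFA1 (3.29 FPKM with MC_2580, 2.62 FPKM in DMSO), so its value is uncertain.

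**Figure D2:**
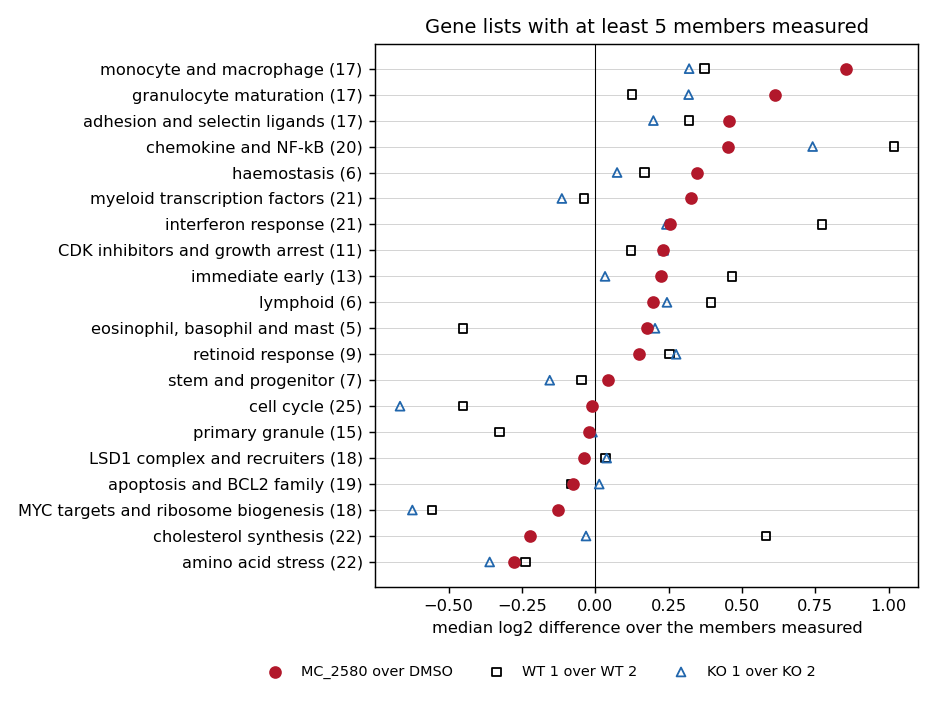
Median log2 difference (FPKM + 1) over the measured members of each gene list, number in brackets, for MC_2580 over DMSO (filled) and between like libraries (open). The monocyte and macrophage list lies at 0.86 and the granulocyte list at 0.61, while the chemokine and interferon lists lie below their WT 1 over WT 2 medians.

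Cell cycle genes were split evenly around DMSO. Of 25 measured, 12 stood above DMSO, near the 46.3% over all genes, with a median of -0.01 and a range of -0.32 (CCND2) to 0.30 (MCM5). MKI67 stood at 69.5 FPKM with MC_2580 and 80.99 FPKM in DMSO. CDK inhibitor and growth arrest genes had a median of 0.23 with 0 past 2-fold on the log2(FPKM + 1) scale. The highest was CDKN1C at 1.87 FPKM with MC_2580 and 0.777 FPKM in DMSO. In the BCL2 family and other apoptosis genes 6 of 19 stood above DMSO (46.3% of all genes), median -0.08. The TRAIL receptor gene TNFRSF10B was highest at 23.5 FPKM with MC_2580 and 13.3 FPKM in DMSO. That locus overlaps RHOBTB2.

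Biosynthetic genes mostly lay below DMSO, with 0 past 2-fold on the log2(FPKM + 1) scale, while 46.3% of all genes stood above DMSO. Of 22 measured genes of the amino acid stress response 2 stood above DMSO, with a median of -0.28 (-0.24 between WT 1 and WT 2, -0.36 between KO 1 and KO 2). ASNS, asparagine synthetase, stood at 42.3 FPKM with MC_2580 and 71.4 FPKM in DMSO, PSAT1 of serine synthesis at 45.5 FPKM with MC_2580 and 67.7 FPKM in DMSO, and SLC7A11, the cystine transporter, at 1.93 FPKM with MC_2580 and 3.94 FPKM in DMSO. Of 22 measured cholesterol synthesis genes 4 stood above DMSO, with a median of -0.22 (0.58 between WT 1 and WT 2, -0.03 between KO 1 and KO 2). HMGCS1 stood at 286 FPKM with MC_2580 and 406 FPKM in DMSO and MSMO1 at 48.2 FPKM with MC_2580 and 71.3 FPKM in DMSO. MYC targets and ribosome biogenesis genes had 4 of 18 above DMSO and a median of -0.13 (-0.56 between WT 1 and WT 2, -0.62 between KO 1 and KO 2), and MYC stood at 309 FPKM with MC_2580 and 319 FPKM in DMSO.

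Markers of other cell types were mostly undetected or near their DMSO level. The 6 measured lymphoid genes of 18 summed to 149 FPKM with MC_2580 and 143 FPKM in DMSO, CD3D among them (69.7 FPKM with MC_2580, 74.4 FPKM in DMSO), and MS4A1, CD2 and LCK lay below 1 FPKM in both. The eosinophil, basophil and mast cell list summed to 1194 FPKM with MC_2580 and 1379 FPKM in DMSO, most of it from PRG2, eosinophil major basic protein (1075 FPKM with MC_2580, 1294 FPKM in DMSO). HDC, histidine decarboxylase, stood at 88.4 FPKM with MC_2580 and 58.4 FPKM in DMSO. Globin genes HBA1, HBB and HBD, and the megakaryocyte genes PF4 and PPBP, lay below 1 FPKM in both, as did the fibroblast genes COL1A1 and DCN. VIM, vimentin, listed with the fibroblast genes but made by leukocytes too, stood at 879 FPKM with MC_2580 and 593 FPKM in DMSO.

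Haemostasis genes, which matter in promyelocytic leukaemia because of its bleeding disorder, were above DMSO in 6 of 6 measured (46.3% of all genes). Their median was 0.35 (0.17 between WT 1 and WT 2, 0.07 between KO 1 and KO 2). ANXA2, annexin A2, a cell surface receptor that promotes fibrinolysis, was past 2-fold at 76.6 FPKM with MC_2580 and 31.9 FPKM in DMSO. Its partner S100A10 stood at 155 FPKM with MC_2580 and 134 FPKM in DMSO, and F3, tissue factor, at 12.1 FPKM with MC_2580 and 9.56 FPKM in DMSO. Stem and progenitor genes stayed near DMSO (4 of 7 above, against 46.3% of all genes, median 0.04), while KIT, CD34 and MEIS1 lay below 1 FPKM in both.

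The other genes among the 20 largest differences at 5 FPKM or more have varied roles. That limit leaves out FCRLA, PI16, LY96, CAMSAP2, GPR65, S100A8, LRRK2, THBS1, MCUB and CDA, whose differences exceeded that of C19orf38, the last of the 20. TMEM243 (C7orf23 in the table, chr7:86619664-86686967), a membrane protein gene, stood at 17.6 FPKM with MC_2580 and 1.95 FPKM in DMSO, but its locus overlaps DMTF1. RTN4RL2, a Nogo receptor family member, stood at 11.8 FPKM with MC_2580 and 2.69 FPKM in DMSO. HGF, hepatocyte growth factor, stood at 57.8 FPKM with MC_2580 and 20.98 FPKM in DMSO. With RA, TMEM243 stood at 17.2 FPKM in the combination and 0.299 FPKM in RA 0.01 uM, RTN4RL2 at 2.72 FPKM in the combination and 0.289 FPKM in RA 0.01 uM and HGF at 38.4 FPKM in the combination and 9.43 FPKM in RA 0.01 uM.

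CHST2, a sulfotransferase, stood at 11.00 FPKM with MC_2580 and 3.13 FPKM in DMSO. GLIPR1 stood at 20.1 FPKM with MC_2580 and 5.85 FPKM in DMSO, with a locus that overlaps KRR1. SEPTIN10 (SEPT10 in the table), a cytoskeletal GTPase, stood at 8.72 FPKM with MC_2580 and 2.39 FPKM in DMSO. PI4K2A, a lipid kinase, SERPINB8, a protease inhibitor, CD48, a SLAM family receptor, and C19orf38 had ratios of 3.35, 3.08, 2.84 and 3.39. The protein kinase gene TESK2 stood at 5.74 FPKM with MC_2580 and 1.34 FPKM in DMSO. MUTYH, a DNA repair glycosylase within the same locus, stood at 7.24 FPKM with MC_2580 and 15.3 FPKM in DMSO. Whether reads of this pair are shared was not tested.

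**Figure D3:**
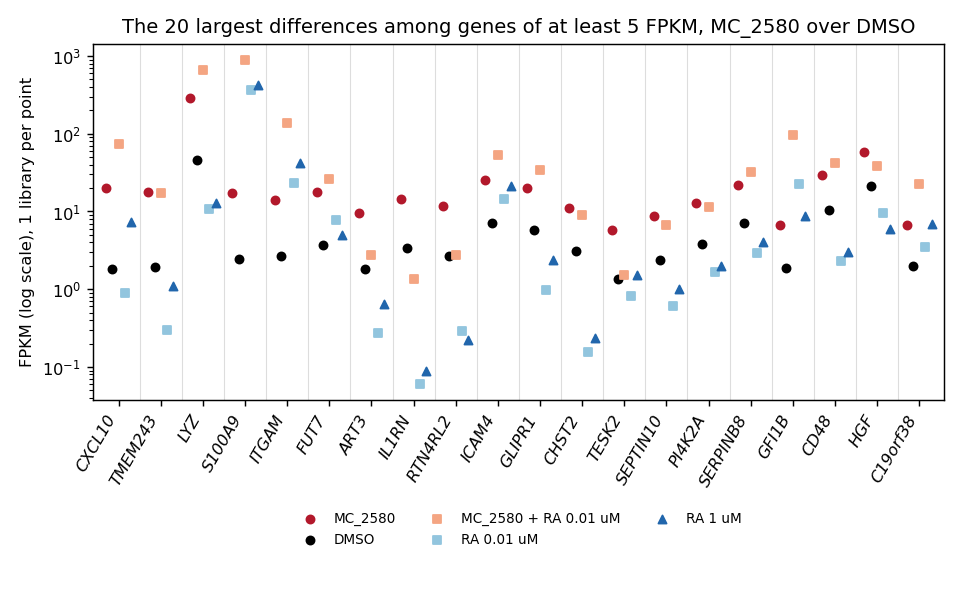
FPKM (log scale) of the 20 genes with the largest log2 difference between MC_2580 and DMSO among those of at least 5 FPKM in 1 of the 2, in the 5 treatment libraries, 1 point a library. The MC_2580 point lies above the DMSO point in all 20, as the choice of genes requires, and the combination point lies above the RA 0.01 uM point in all 20, which it does not.

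The lowest genes of at least 5 FPKM were DEFA3, MUTYH, SERHL2, SDCCAG8, PLCH1, EGR1, RAD51B, CCDC107, ASNS and STK32C. Their log2 differences were -0.98 to -0.67, so that none was past 2-fold with 1 FPKM added. Without it the ratios of DEFA3, MUTYH, SERHL2 and PLCH1 were 0.482, 0.474, 0.470 and 0.480, past 2-fold. SERHL2 stood at 3.35 FPKM with MC_2580 and 7.13 FPKM in DMSO, SDCCAG8 at 7.23 FPKM with MC_2580 and 14.3 FPKM in DMSO, and RAD51B, a recombination gene, at 4.56 FPKM with MC_2580 and 8.61 FPKM in DMSO. Of these, the authors' deposited table calls MUTYH lower. Its other lower calls are highly expressed genes with small differences, SCD, NCL, TUBA1B and EEF1A1, at -0.42, -0.21, -0.18 and -0.13.

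Adding MC_2580 to RA 0.01 uM is another measurement of the inhibitor that shares no library with the first. Over all genes 451 of 9779 (4.61%) were 2-fold higher in the combination than in RA 0.01 uM and 35 (0.358%) lower. Of the 71 genes 59 (83.1% of the 71, 13.1% of the 451) were 2-fold higher and 0 lower, and the median log2 difference was 1.99 against 0.03 over all genes. Of the 71, 69 stood above RA 0.01 uM at all, where 53.4% of all genes did. Of the 9445 genes that reached 1 FPKM in RA 0.01 uM, 4884 stood above it and 333 were 2-fold higher. Among these were 38 of the 71, of which 36 stood above it and 33 were 2-fold higher. AP4S1 and C1orf54 were the 2 below, at -0.25 and -0.24, and LMNA, a nuclear lamin gene, stood at 22.4 FPKM in the combination and 21.4 FPKM in RA 0.01 uM, and without RA at 93.8 FPKM with MC_2580 and 37.7 FPKM in DMSO. Across 9305 genes the differences without and with RA had a Pearson correlation of 0.61 and a Spearman correlation of 0.46, and 0.53 (Pearson) without the 71. Genes are not independent replicates, and each difference rests on 1 library a side.

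The levels reached without RA were for some genes the higher ones. The MC_2580 library was the highest of the 5 treatment libraries in 31 of the 71 genes and the combination in 40. The 71 were chosen for a high MC_2580 value, which favours that library in this count. The share over all genes is not given here, so nothing is concluded from the count. CYTL1, a secreted cytokine-like protein, stood at 459 FPKM with MC_2580 and 201 FPKM in DMSO, but at 28.9 FPKM in the combination and 7.71 FPKM in RA 0.01 uM. NKD2, an antagonist of Wnt signalling, stood at 26.6 FPKM with MC_2580 and 11.1 FPKM in DMSO, but at 1.76 FPKM in the combination and 1.699 FPKM in RA 0.01 uM.

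**Figure D4:**
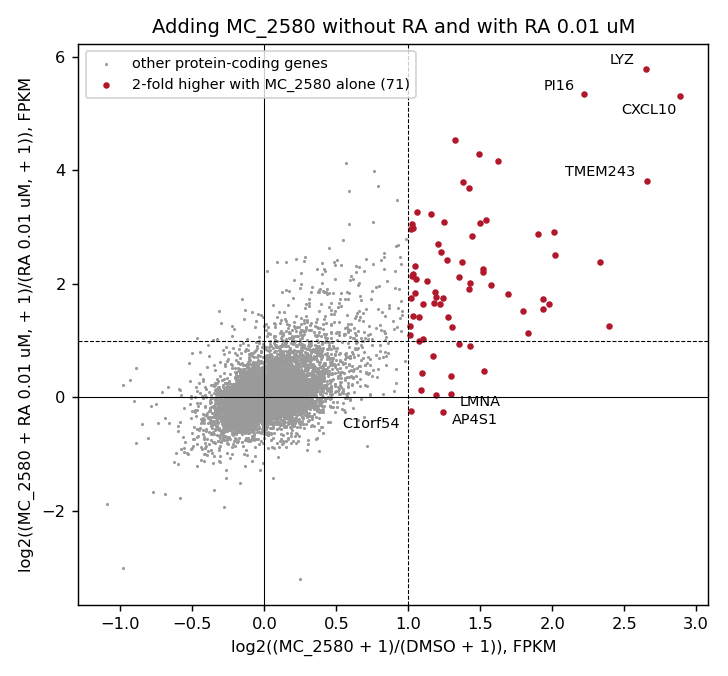
log2 difference (FPKM + 1) on adding MC_2580 to RA 0.01 uM against that on adding MC_2580 without RA, 1 point a gene, dashed lines at 2-fold. Of the 71 genes right of the dashed line, 59 also lie above the horizontal dashed line and 2 lie below 0.

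The KO and WT libraries are separate from all of these. KDM1A stood at 13.96 and 16.8 FPKM in KO against 49.8 and 66.6 FPKM in WT. Both KO libraries lay under both WT libraries (log2 difference -1.84, SE 0.23, limma adjusted p = 0.0579), n = 2 each, which missed the threshold among 9960 protein-coding genes. Over these genes, fitted without pairing, 43 (0.432%) passed limma at an adjusted p of 0.05 higher in KO and 16 (0.161%) lower, with 879 at an unadjusted p under 0.05.

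Of the 71 genes 66 could be tested there, and 13 passed, all higher in KO (19.7% of the 66, 30.2% of the 43), with 0 lower. That fit has no pairing, and with the replicate number as a block more of the 71 passed, as given at the end. The 5 not tested, too low in both groups, were FCRLA, CD86, MS4A4A, L1CAM and LRRC25. Of the 66, 63 had a higher mean in KO, with a median log2 difference of 1.42 against -0.02 over all genes. Both KO libraries stood above both WT libraries in 52 of the 66, where 18.7% of all genes did, and below both in 0, where 16.9% did. Of the 9663 genes that reached 1 FPKM on average in WT, 4322 were higher in KO, with a median of -0.04. Among the 49 of the 66 that did, 46 were higher in KO, with a median of 1.16. CXCL10, STAB1 and NKD2 were the 3 with a lower KO mean, at -0.51, -0.05 and -0.04, and none of these passed. The 13 became 28 without KO 1, 32 without KO 2, 43 without WT 1, 32 without WT 2 and 7 after quantile normalization.

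The 13 that passed were CHST2, IGSF3, KCNG1, MCUB, OTULINL, PI16, RTN4RL2, S100A8, S100A9, SIRPB2, STS, SYTL3 and TMEM243. RTN4RL2 stood at 22.1 and 26.1 FPKM in KO against 1.501 and 1.33 FPKM in WT (log2 difference 3.37, SE 0.18, limma adjusted p = 0.0208). S100A9 stood at 39.9 and 55.9 FPKM in KO against 4.297 and 3.84 FPKM in WT (log2 difference 3.25, SE 0.23, limma adjusted p = 0.0255). TMEM243 stood at 30.8 and 19.6 FPKM in KO against 1.91 and 1.501 FPKM in WT (log2 difference 3.25, SE 0.27, limma adjusted p = 0.0312). The groups lie far apart in all 3. PI16, a peptidase inhibitor family gene, was listed at 0 in both WT libraries and in DMSO, and stood at 6.06 and 5.93 FPKM in KO and at 3.66 FPKM with MC_2580. STS, steroid sulfatase, stood at 9.298 and 8.32 FPKM in KO against 1.09 and 1.66 FPKM in WT (log2 difference 2.05, SE 0.20, limma adjusted p = 0.0382), and at 6.72 FPKM with MC_2580 and 2.296 FPKM in DMSO.

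**Figure D5:**
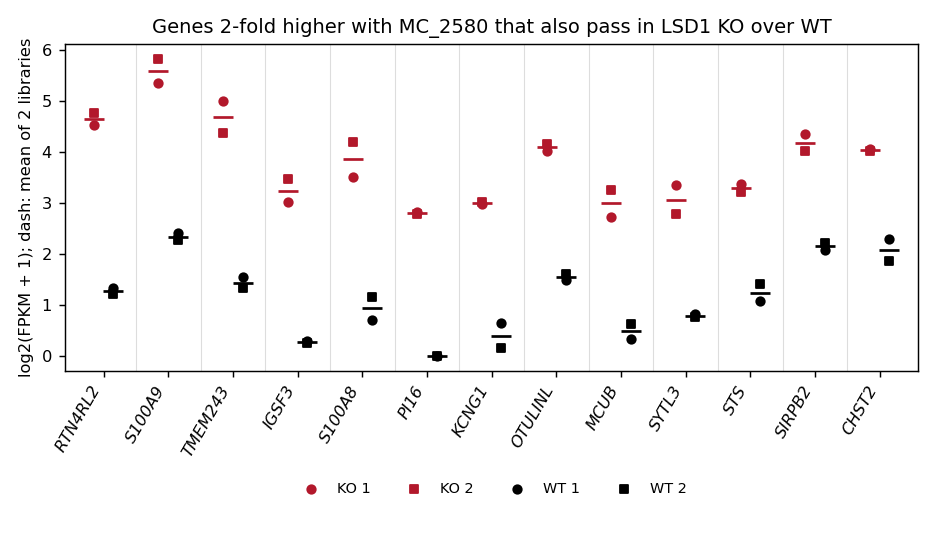
log2(FPKM + 1) in the 2 LSD1 KO and 2 WT libraries for the 13 genes that were 2-fold higher with MC_2580 and passed limma higher in KO; dashes are means. In each gene both KO points lie above both WT points.

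LYZ was higher in KO on average (381 and 912 FPKM in KO against 34.1 and 116 FPKM in WT) and the groups did not overlap. It missed the threshold in the fit without pairing (limma adjusted p = 0.214). Library 1 had the lower LYZ value in both groups, and results of single genes with the replicate block are not given here. HGF stood at 86.9 and 108 FPKM in KO against 29.6 and 25.2 FPKM in WT (log2 difference 1.79, SE 0.22, limma adjusted p = 0.0543). IRF8 stood at 20.6 and 17.4 FPKM in KO against 14.5 and 6.01 FPKM in WT, and KLF4 at 3.76 and 4.78 FPKM in KO against 1.96 and 2.04 FPKM in WT. Neither passed, with limma adjusted p of 0.622 and 0.236.

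Read from the knockout side, genes that passed lower in KO were split in direction with the inhibitor much as all genes were, but not in size. Of the 16, 7 stood above DMSO, near the 46.3% over all genes, and 9 below, with a median log2 difference of -0.11. PXDN, peroxidasin, stood at 14.4 FPKM with MC_2580 and 13.9 FPKM in DMSO, although at 0.0326 and 0.0144 FPKM in KO against 12.7 and 15.4 FPKM in WT. KCNH2, a potassium channel, stood at 21.6 FPKM with MC_2580 and 24.5 FPKM in DMSO, with 1.25 and 1.897 FPKM in KO against 15.1 and 23.05 FPKM in WT. DEFB1, a beta-defensin, stood at 9.02 FPKM with MC_2580 and 14.1 FPKM in DMSO, with 3.99 and 3.36 FPKM in KO against 38.7 and 37.7 FPKM in WT. DEFA4 was the 1 of the 16 past 2-fold. Of the 43 higher in KO, 30 were measured with MC_2580 and 19 reached 1 FPKM in DMSO. 18 of the 19 stood above DMSO and 8 were 2-fold higher, with a median of 0.65. Over all 9406 genes that reached 1 FPKM in DMSO, 4259 stood above it and 48 were 2-fold higher. CLEC5A, a myeloid lectin receptor, stood at 28.5 and 24.4 FPKM in KO against 1.25 and 1.22 FPKM in WT, and at 2.11 FPKM with MC_2580 and 0.679 FPKM in DMSO.

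Over all loci, short RNA and unnamed loci included, the split was even: of 13449 loci 298 (2.22%) were 2-fold higher with MC_2580 and 233 (1.73%) lower. Of these 531, 342 were listed at 0 in 1 of the libraries and 165 spanned under 300 bases, as did 3.08% of all loci compared. At such loci a few reads give a large FPKM, so no direction is read from them.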

How the data were processed

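RNA was sequenced from NB4 cells with TruSeq libraries, per the labels' protocols. Per the file headers, the expression values the authors deposited are FPKM in the layout of Cuffdiff, with a p-value and a significance call for each pair of libraries. The deposited tables also hold the authors' log2 or natural log ratio and a q-value, which in the treatment table exceeds 1 and was treated as a score; these were not used. In the knockout table every deposited FPKM value had 0.001 added, which was taken off. Build hg18, Cuffdiff and Cufflinks, TopHat2 2.0.10, CASAVA 1.8 and TopHat 1.3.1 stand in the submitters' processing notes, without roles. The annotation and scaling are not stated there.

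Rows of MC_2580 and DMSO with a failed status were dropped (722, all at 0). 27 MC_2580 values listed at 0 in this pair but above 0 in another took the value above 0. In the knockout table failed tests kept their values (KDM1A among them). Symbols were matched to RefSeq names or synonyms, which gave 17304 protein-coding genes with 1 locus. Genes needed at least 1 FPKM in 1 library of a pair. For the knockout, log2(FPKM + 1) was fitted in R 4.3.3 by limma 3.58.1 with a mean trend, group mean at least 1 FPKM, Benjamini-Hochberg over all genes tested; the computation was tested on simulated data. Python 3.11.15, pandas 2.3.3 and matplotlib 3.10.9 were used.

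The members and the 24 gene lists (498 entries) were chosen with earlier results of these data known. Genes named are KDM1A, the 20 highest and 10 lowest of at least 5 FPKM, list members past 2-fold, and up to 4 further members a list. Others, such as CYTL1, NKD2 and LMNA, genes named at 0 or low values, and examples from the knockout and the authors' calls, were chosen after their values were seen. Other pseudocounts, filters and scalings, a 4-fold line, the authors' calls, a replicate block and leaving out each library were tried. Only the file's FPKM are known, so no counting interval is given.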

Additional observations from a re-analysis of the deposited data

How the results depend on the processing

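The count of 71 higher protein-coding genes kept within 1.5 times with no filter, rescaling to a median of 0, quantile normalization and the authors' calls (71, 72, 61 and 57), and was 52 without genes that differ 2-fold between like libraries, an alternative chosen after seeing the data. It was 133 with a pseudocount of 0.1 FPKM, 23 with 5 FPKM, 43 at a minimum of 5 FPKM and 8 at 4-fold. The single lower gene became 11, 0, 0 and 0 under these, 2 with quantile normalization and 5 by the authors' calls. Over all loci the 298 higher were 196 with a pseudocount of 5 FPKM, 150 at 4-fold and 76 by the authors' calls, and the 233 lower were 24 by the authors' calls. Of the 71, 59 were 2-fold higher in the combination than in RA 0.01 uM, and 41 to 64 under 4 alternatives. For single genes 448 values stayed within the spread and 64 moved, for list medians 114 and 6.

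For KO against WT, the higher and lower counts of 43 and 16 became 88 to 261 and 35 to 125 when each library was left out, where the lone library is assumed to vary like the other group. Of the 71, the 13 that passed became 28 without KO 1, 32 without KO 2, 43 without WT 1 and 32 without WT 2, and 7 with quantile normalization, and the 0 that passed lower became 0 to 1. The cause was not tested. With the replicate number as a block, 1563 genes passed higher and 1368 lower, and 53 of the 71 passed higher. KO 1 minus KO 2 and WT 1 minus WT 2 had a correlation of 0.86 across genes, so libraries of the same number share a difference. The authors' deposited ratios also set KO 1 against WT 1 and KO 2 against WT 2. No label says what a number marks, and there are only 2 pairs. The main counts stand without the block and depend on that choice. The number of libraries limits all of this: 1 library a side for MC_2580, with depth known only relative to DMSO.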
